A study of Mus musculus with 4 samples.

Results

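The mitochondrial ribosomal protein genes (Mrp genes) were taken as every protein-coding gene of the mouse annotation (GENCODE basic, release 21, mm10) whose symbol begins with Mrpl or Mrps followed by a digit. This gave 78 of 21938 protein-coding genes, 49 named Mrpl and 29 named Mrps. They were compared with the peaks of MIZ-1 (Zbtb17), a transcription factor with a POZ domain and a row of zinc fingers, in B220+ splenocytes of 2 genotypes. A gene was called bound when a peak overlapped the stretch from 2000 bp before to 1000 bp after any of its transcript starts by at least 1 bp.

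MIZ-1WT mice carried the intact gene. MIZ-1DPOZ mice were the cross of MB1-Cre with Miz-1floxPOZ animals, in which the Cre under the control of the B-lineage gene Mb1 (Cd79a) removes the POZ domain, so that a MIZ-1 protein with its zinc fingers but without this domain remains. All animals were on a C57BL/6 background and 40 to 70 days old, and no other treatment was named for the chromatin samples. The series held 1 ChIP library and 1 input library for each genotype. Whether the MIZ-1WT mice carried the Cre was not given in the sources used here. With 1 ChIP library per genotype no test between genotypes was possible, so the values below compare 2 libraries. The intervals of pileup ratios cover the counting error of fragments only. The intervals of shares treat the genes of a set as independent draws, which they are not, and hold no variation between animals or libraries. A peak list of a transcription factor holds no expression, so the B220+ label could not be checked against marker genes.

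Mitochondria keep their own ribosomes, which translate the few proteins that mitochondrial DNA encodes, all of them subunits of the oxidative phosphorylation complexes. The ribosomal RNAs are made inside the organelle, while every protein of the large and the small subunit is encoded in the nucleus, made in the cytosol and imported. MIZ-1 binds DNA through its zinc fingers, associates with itself through the POZ domain, and is known as a partner of MYC, which activates genes of ribosome and mitochondrial biogenesis. The symbols do not follow the subunits throughout, since the proteins of Mrps18a and Mrps30 sit in the large subunit and that of Mrps36 has been assigned to the alpha-ketoglutarate dehydrogenase complex.

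The sequences of the promoters or summits that stood out are given first, in the direction of transcription of the named gene (build GRCm38.p6, the assembly behind mm10). The Mrps23 stretch is the 250 bases before the RefSeq start at the only Mrp promoter with a peak of at least 20 fragments in both lists, chr11:88204138-88204387 on the + strand. In it the MIZ-1WT summit falls on base 173 and the MIZ-1DPOZ summit on base 176, and the capitals mark the letters ATCGAT. The Mrpl55 stretch, chr11:59202236-59202485 on the + strand, is shown as a contrast, because among the Mrp genes with no peak in either list it had the promoter GC content nearest to that of Mrps23 (58.9% and 58.8%). Its capitals mark a GC box on the opposite strand. The other 3 are stretches reaching 50 bases to each side of the summits of the tallest peaks present in 1 list only, without capitals because none of the motifs searched occurred in them. They are Mrpl53 (MIZ-1WT summit, chr6:83109219-83109319, + strand), Mrpl44 (MIZ-1DPOZ summit, chr1:79776247-79776347, + strand) and Mrps18c (MIZ-1DPOZ summit, chr5:100798241-100798341, + strand).
Mrps23: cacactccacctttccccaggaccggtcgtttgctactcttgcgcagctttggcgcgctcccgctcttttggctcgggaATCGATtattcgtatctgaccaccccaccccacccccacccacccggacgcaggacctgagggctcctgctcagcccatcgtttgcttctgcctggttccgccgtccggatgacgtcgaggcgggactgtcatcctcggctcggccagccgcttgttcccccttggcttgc
Mrpl55: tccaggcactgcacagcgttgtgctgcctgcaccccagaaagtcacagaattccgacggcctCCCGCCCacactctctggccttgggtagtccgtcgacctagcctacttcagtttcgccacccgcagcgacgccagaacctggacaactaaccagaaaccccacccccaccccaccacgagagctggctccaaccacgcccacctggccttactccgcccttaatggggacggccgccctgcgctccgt
Mrpl53: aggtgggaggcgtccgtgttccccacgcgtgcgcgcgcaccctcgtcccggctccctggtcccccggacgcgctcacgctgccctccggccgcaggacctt
Mrpl44: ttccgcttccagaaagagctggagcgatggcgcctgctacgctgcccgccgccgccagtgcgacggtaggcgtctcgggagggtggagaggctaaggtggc
Mrps18c: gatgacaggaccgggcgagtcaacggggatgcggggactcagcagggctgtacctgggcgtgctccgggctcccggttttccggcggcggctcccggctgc

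Fewer Mrp genes were bound than other genes of the same promoter composition, in both lists. In the MIZ-1WT list 14 of the 78 had a promoter peak (17.9%, Wilson 95% interval 11 to 27.9), against 30.9% of all protein-coding genes. A promoter peak of the MIZ-1DPOZ list was found for 29 (37.2%, 27.3 to 48.3), against 48.7% of all. Promoter peaks became more frequent with GC content in both lists, so the share of the other protein-coding genes in each of 10 strata of promoter GC content was weighted by the number of Mrp genes in the stratum. This gave 31.6% for MIZ-1WT and 53.6% for MIZ-1DPOZ, and 30.7% and 53.5% when the number of start sites was matched as well. Both values lay above the upper end of the interval of the Mrp genes. Genes of a stratum are not independent replicates, and the comparison carries no test.

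**Figure D1:**
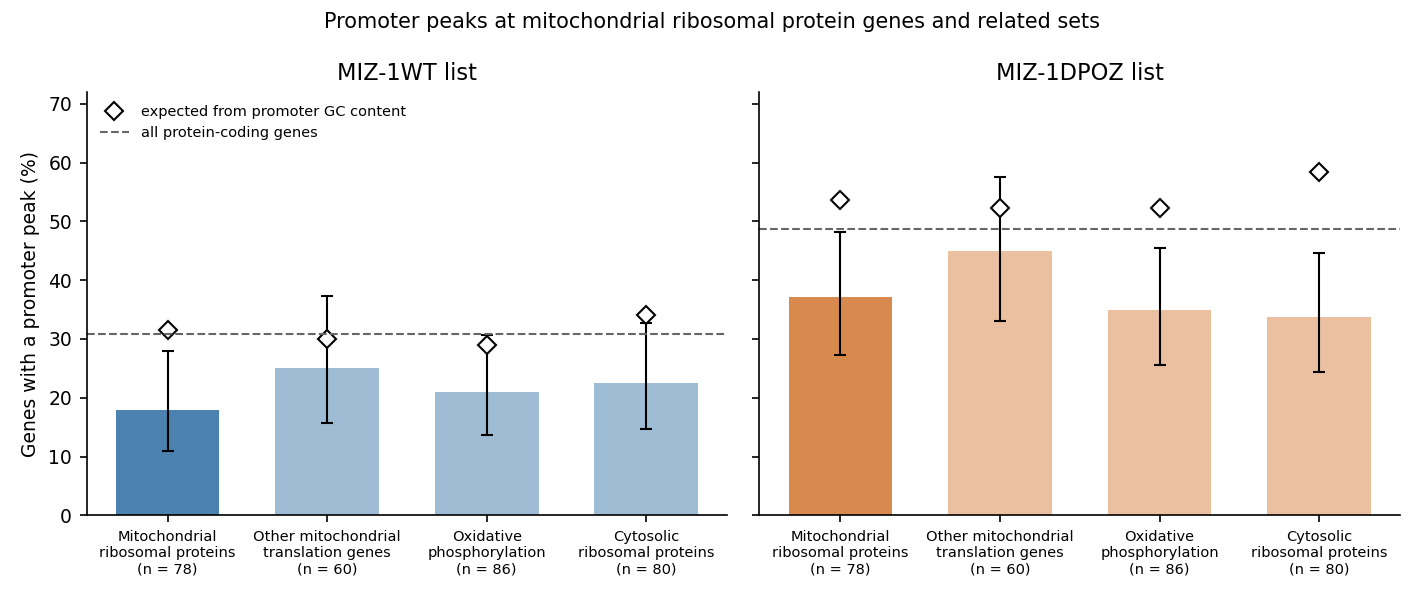
Share of genes with a promoter peak (%, y axis) in the MIZ-1WT list (left) and the MIZ-1DPOZ list (right) for 4 gene sets, with Wilson 95% intervals. Diamonds give the share expected from promoter GC content and the dashed line the share of all protein-coding genes; the Mrp genes stand at 17.9% and 37.2%, under diamonds at 31.6% and 53.6%.

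The split of the 78 genes between the lists also differed from that of all genes. A promoter peak in both lists was found for 7 Mrp genes (8.97%, 4.42 to 17.4), where the background was 26.7% and the value expected from GC content 26.5%. A peak in the MIZ-1WT list only was found for 7 (8.97%, 4.42 to 17.4), with a background of 4.22% and an expected 5.04%. A peak in the MIZ-1DPOZ list only was found for 22 (28.2%, 19.4 to 39.0), with a background of 22% and an expected 27.1%. The remaining 42 had none in either list (53.8%, 42.9 to 64.5), with a background of 47.1% and an expected 41.3%. The shortfall against GC content thus lay in the genes bound in both lists, while the share found in a single list was not below its expected value.

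Of the 14 Mrp genes bound in the MIZ-1WT list, 7 were bound in the MIZ-1DPOZ list as well (50.0%, 26.8 to 73.2), against 5847 of 6773 protein-coding genes (86.3%). Weighted by GC content the expected share was 85.1%, and weighted by GC content and pileup together it was 86.2%. This comparison was chosen after the counts had been seen. The low share was not particular to the Mrp genes. It was 9 of 18 for cytosolic ribosomal protein genes (50%, expected from GC content 84.5%) and 10 of 18 for oxidative phosphorylation subunit genes (55.6%, expected 83.0%). For other mitochondrial translation genes it was 10 of 15 (66.7%, expected 83.8%). At the level of peaks, 7 of 15 MIZ-1WT promoter peaks of Mrp genes overlapped a MIZ-1DPOZ peak (46.7%, 24.8 to 69.9), against 73.3% of the 7584 promoter peaks of all protein-coding genes, although the median pileup was 9 fragments in both. When only peaks with a −log10 q of at least 5 counted, 3 of 5 Mrp genes and 72.7% of all genes bound in the MIZ-1WT list were also bound in the other, a narrower gap on few genes. With a fold enrichment of at least 5 the gap was narrower still, with 4 of 7 Mrp genes (57.1%) against 66.4% of all.

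The Mrpl and Mrps genes were counted apart. Of the 49 Mrpl genes, 7 were bound in the MIZ-1WT list (14.3%, 7.10 to 26.7) and 16 in the MIZ-1DPOZ list (32.7%, 21.2 to 46.6), with expected shares of 30.4% and 51.9%. Of the 29 Mrps genes, 7 were bound in the MIZ-1WT list (24.1%, 12.2 to 42.1) and 13 in the MIZ-1DPOZ list (44.8%, 28.4 to 62.5), with expected shares of 33.4% and 56.5%. The intervals of the groups overlapped in both lists. Both groups were below the expected share, which for the Mrps genes lay inside their own interval in both lists.

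The 29 Mrpl genes without a promoter peak in either list were Mrpl1, Mrpl2, Mrpl9, Mrpl10, Mrpl11, Mrpl12, Mrpl13, Mrpl15, Mrpl16, Mrpl17, Mrpl18, Mrpl19, Mrpl21, Mrpl22, Mrpl24, Mrpl27, Mrpl28, Mrpl30, Mrpl32, Mrpl33, Mrpl35, Mrpl39, Mrpl42, Mrpl46, Mrpl49, Mrpl50, Mrpl51, Mrpl54 and Mrpl55. Among them are proteins with counterparts in the bacterial ribosome, such as Mrpl2 and Mrpl11, and proteins found in mitochondrial ribosomes only. The 13 Mrps genes were Mrps5, Mrps9, Mrps10, Mrps11, Mrps12, Mrps14, Mrps17, Mrps18b, Mrps22, Mrps25, Mrps31, Mrps33 and Mrps35. The lists hold called peaks only, so a gene without one may carry signal under the calling limit. At the most frequent background of each list, the smallest pileup (the number of fragments over the summit) that was called was 5 fragments for MIZ-1WT and 6 for MIZ-1DPOZ.

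Composition set the bound and unbound Mrp genes apart in the same direction as in the rest of the genome. The median promoter GC content was 61.6% for those bound in both lists, 57.7% for those in the MIZ-1DPOZ list only and 53.4% for those in neither. In the GC strata 3 to 7 (45.9 to 59.5% GC), 5 of 59 Mrp genes were bound in the MIZ-1WT list (8.47%, 3.67 to 18.4), where 22.9% were expected. In strata 8 to 10, 9 of 19 were bound (47.4%, 27.3 to 68.3), where 58.6% were expected. In the MIZ-1DPOZ list the same strata gave 18 of 59 (30.5%, expected 44.5%) and 11 of 19 (57.9%, expected 82.0%). The gap was thus present in both ranges taken as a whole, and in the high strata the expected MIZ-1WT share lay inside the interval. Single strata held 3 to 15 Mrp genes and did not all show it. In stratum 3 the MIZ-1WT list held 2 of 10 Mrp genes against 9.24% of the others, and in stratum 6 the MIZ-1DPOZ list held 5 of 9 (55.6%) against 54.3%.

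**Figure D2:**
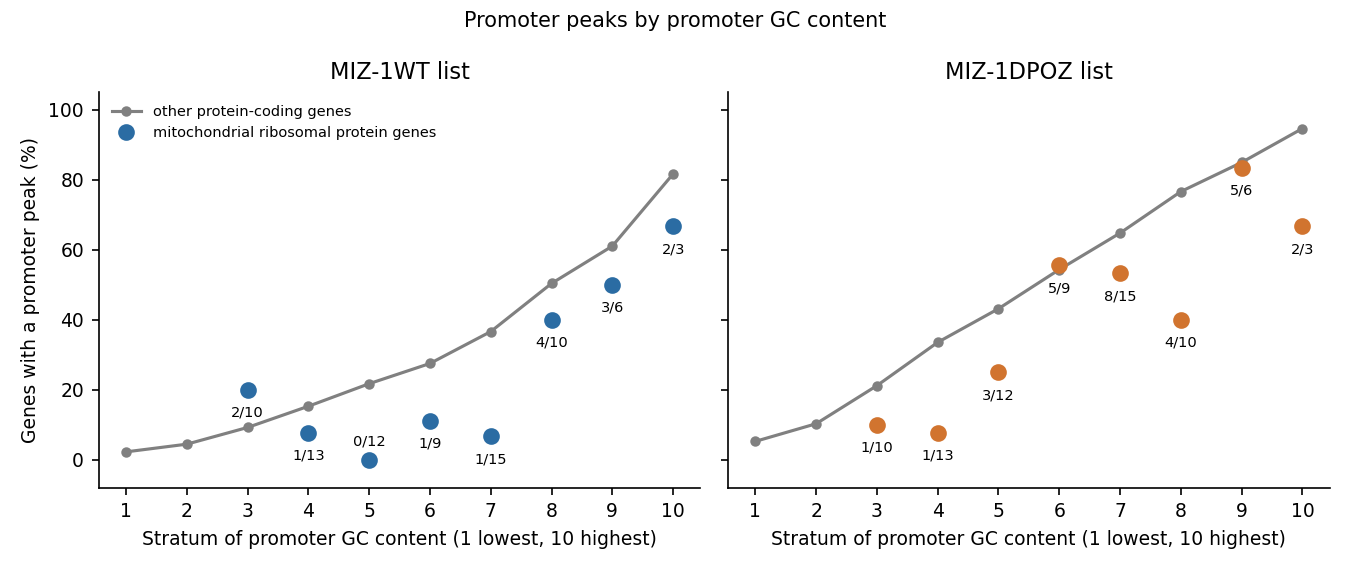
Share of genes with a promoter peak (%, y axis) by stratum of promoter GC content (x axis, 1 lowest) in the MIZ-1WT list (left) and the MIZ-1DPOZ list (right). Grey points are the other protein-coding genes and coloured points the Mrp genes, each with its count; no Mrp gene fell in strata 1 and 2, and the Mrp genes lie under the grey points except in stratum 3 of the MIZ-1WT list (20% against 9.24%) and stratum 6 of the MIZ-1DPOZ list (55.6% against 54.3%).

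Mrp genes often shared their promoter with another gene. A protein-coding partner on the opposite strand, starting within 1000 bp before the Mrp gene, was present for 23 of the 78 (29.5%), against 8.18% of all protein-coding genes. Of these 23, 3 were bound in the MIZ-1WT list (13%, 4.54 to 32.1) and 9 in the MIZ-1DPOZ list (39.1%, 22.2 to 59.2). All protein-coding genes with such a partner were bound in 38.1% and 57.0% of cases. Of the 55 Mrp genes without a partner, 11 (95% interval 11.6 to 32.4%) and 20 (24.9 to 49.6%) were bound, against 30.2% and 48.0% of all protein-coding genes without one. The shares of all genes of their kind lay inside the intervals of the Mrp genes, except that of the MIZ-1WT list for genes with a partner. Those shares are not matched for GC content. The shares expected from GC content were 39.7% (MIZ-1WT) and 63.6% (MIZ-1DPOZ) for the Mrp genes with a partner, both above their intervals. For those without a partner they were 28.1% and 49.4%, both inside. The Mrp genes also had single starts more often (60.3% against 49.0%), a shorter median length (7.90 kb against 17.4 kb) and a higher median ratio of observed to expected CpG (0.72 against 0.54).

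Mrps23, which encodes a protein of the small subunit found in mitochondrial and not in bacterial ribosomes, carried by far the tallest promoter peaks. Its summit held 45 fragments in the MIZ-1WT list (fold enrichment 18.3, −log10 q 45.2, chr11:88204163-88204500) and 40 fragments in the MIZ-1DPOZ list (fold enrichment 15.9, −log10 q 37.9, chr11:88204118-88204479). The summits lay 78 and 75 bp before the nearest start. It was the only Mrp gene with a MIZ-1WT promoter peak of at least 20 fragments (1 of 78, background 0.675%) and one of 2 in the MIZ-1DPOZ list (background 2.96%), the other being Mrpl44. Ranked by pileup it stood at place 75 of 6773 bound promoters in the MIZ-1WT list and 97 of 10683 in the MIZ-1DPOZ list. The MIZ-1DPOZ library was 1.34 times as deep by its background, and with that scaling the ratio of MIZ-1DPOZ to MIZ-1WT pileup was 0.66 (exact binomial 95% interval 0.42 to 1.04), which includes equality. Scaled by the most frequent background alone, without the fragment lengths, the Mrps23 ratio was 0.57 (0.36 to 0.89), which excludes it, so the call depended on the scaling.

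The other 6 genes bound in both lists had lower peaks than Mrps23, with 7 to 11 fragments in MIZ-1WT and 9 to 17 in MIZ-1DPOZ. Mrps15, a protein with a bacterial counterpart, had 11 fragments in each library, 102 and 68 bp after its start, and a scaled ratio of 0.75 (0.29 to 1.90). Mrps6 had 11 fragments in MIZ-1WT and 14 in MIZ-1DPOZ, with a ratio of 0.95 (0.40 to 2.31). The strongest Mrps6 peaks did not overlap, their summits lying 606 bp apart, and the MIZ-1WT peak was overlapped by a weaker MIZ-1DPOZ peak of 10 fragments in the intron, nearest to the start of Slc5a3.

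Mrpl23, whose protein lines the exit of the peptide tunnel, had 9 and 11 fragments and a ratio of 0.91 (0.34 to 2.49). Mrps24 had 9 and 15 fragments and a ratio of 1.24 (0.51 to 3.22), and Mrpl57 had 7 and 9 fragments and a ratio of 0.96 (0.32 to 3.03). In all 3 the peaks of the lists overlapped, with summits in an untranslated exon stretch or an intron. Mrpl40 had the highest ratio of the 7, with 7 fragments in MIZ-1WT and 17 in MIZ-1DPOZ and a value of 1.81 (0.71 to 5.17), at chr16:18877280-18877427 and chr16:18877130-18877400. These peaks lay 482 and 416 bp before Mrpl40, nearer to Hira, a histone chaperone gene that starts on the opposite strand.

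Over the 7 genes the median log2 ratio of scaled pileups was −0.08 and the range −0.59 to 0.86, beside a median of 0.11 over all protein-coding genes bound in both lists. With the depth scaling the interval included equality in all 7, and with the scaling by the most frequent background in all but Mrps23.

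**Figure D3:**
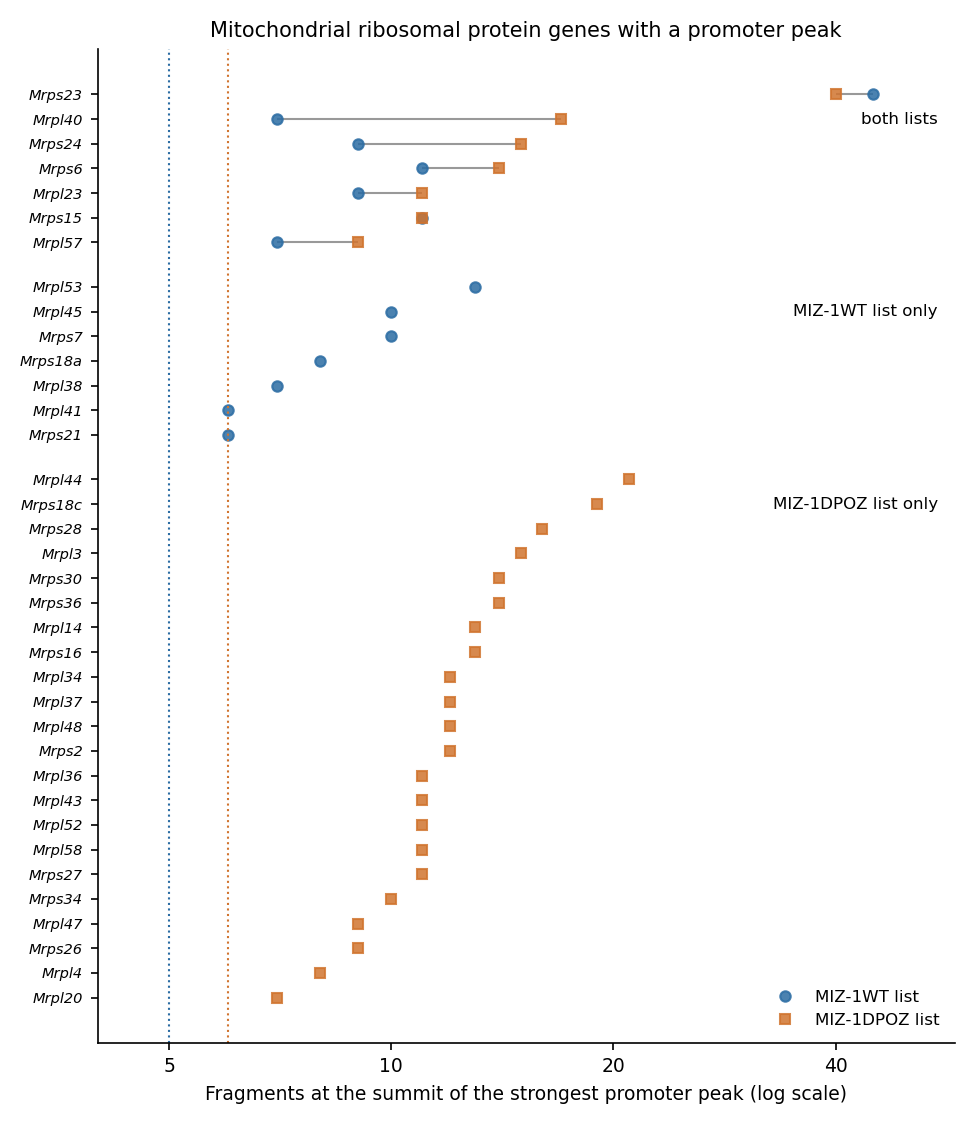
Fragments at the summit of the strongest promoter peak (x axis, log scale) for the 36 Mrp genes bound in at least 1 list, with circles for MIZ-1WT and squares for MIZ-1DPOZ. Dotted lines mark the smallest pileups called at the most frequent background (5 and 6); Mrps23 stands apart at 45 and 40 fragments, and all other values lie between 6 and 21.

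The 7 Mrp genes bound in the MIZ-1WT list only had between 6 and 13 fragments at their summits. Mrpl53, a protein at the base of the large subunit's stalk, had the highest, with 13 fragments and a −log10 q of 8.15 at chr6:83109187-83109369, in its intron 229 bp after the start. An antisense transcript, Ccdc142os, starts nearer to that summit. If the MIZ-1DPOZ library held no more than its smallest called pileup of 6 there, the scaled ratio would be at most 0.34, with an upper bound of 0.97. Among the 7, the bound lay under 1 for Mrpl53 alone, under either scaling (0.83 by the most frequent background). The 7 were picked for a MIZ-1WT peak without a MIZ-1DPOZ one, and Mrpl53 was the tallest of them. The bound does not allow for that choice, so it cannot decide whether the level differed between the libraries. The nearest MIZ-1DPOZ peak lay 3570 bp away.

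The other 6 were weaker. Mrpl45, whose protein holds the ribosome to the inner membrane, had 10 fragments 10 bp before its start (chr11:97315599-97315781, −log10 q 5.05). Mrps7 had peaks of 10 and 8 fragments on either side of its start, the second nearest to Gga3. Mrps18a had 8 fragments, Mrpl38 had 7, and Mrpl41 and Mrps21 had 6 each. The Mrps21 peak lay 1606 bp before the start in a window that was 100% repeat-masked. For these 6 the bounds ran from 1.36 to 2.79, so an equal level in both libraries was not excluded by the counts.

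The 22 genes bound in the MIZ-1DPOZ list only had between 7 and 21 fragments, with a median of 12. Mrpl44, a protein related to RNase III enzymes near the tunnel exit, had the highest, with 21 fragments and a −log10 q of 15.6 at chr1:79776165-79776445, in its coding exon 279 bp after the start. Mrps18c, a small subunit protein, followed with 19 fragments and a −log10 q of 13.3 at chr5:100798155-100798450, a position 336 bp before its start and nearer to the start of Helq, a DNA helicase gene. If MIZ-1WT held at most its smallest called pileup of 5, the scaled ratios would be at least 3.13 for Mrpl44 and 2.83 for Mrps18c, with lower bounds of 1.15 and 1.02. These were the only 2 of the 22 whose bounds lay above 1. Scaled by the most frequent background the bounds were 0.98 and 0.88, so that none of the 22 lay above 1. The 22 were picked for a MIZ-1DPOZ peak without a MIZ-1WT one, and these 2 were the tallest. The bounds do not allow for that choice, so they cannot decide whether the levels differed between the libraries.

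Mrps28 had 16 fragments (−log10 q 9.96) in its intron 347 bp after the start, and Mrpl3, the large subunit protein with a bacterial counterpart of the same number, had 15 fragments (−log10 q 8.91) 148 bp after it. Mrps30 and Mrps36 tied at 14 fragments (−log10 q 7.89). The 16 others held 7 to 13 fragments. At an equal level, with the depth scaling, all 22 would have reached 5.22 or more fragments in the MIZ-1WT library, just above its calling limit for the weakest, Mrpl20. Scaled by the most frequent background, the Mrpl20 ratio at that limit was 0.89, so an equal level would fall short of it. The limit of 5 also holds at the most frequent background only. Mrps34, for 1, had a MIZ-1DPOZ background of 2.30 fragments against the most frequent 1.35. The depth of the lists therefore does not settle whether the levels of these genes differed between the libraries.

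Under stricter calling the share of bound Mrp genes was also below the background, but on few genes in the MIZ-1WT list and with no intervals taken. With a −log10 q of at least 5, 5 Mrp genes were bound in the MIZ-1WT list (6.41%, background 9.78%, expected 9.89%) and 19 in the MIZ-1DPOZ list (24.4%, background 33.3%, expected 35.8%). When the MIZ-1DPOZ list was shortened to the number of MIZ-1WT peaks, 12 Mrp genes were bound in it (15.4%) where 27.1% were expected. At that length the MIZ-1DPOZ count was below the 14 of the MIZ-1WT list, so the order of the counts depended on the number of peaks called. Given to the gene of the nearest start only, the peaks left 10 Mrp genes bound in MIZ-1WT (12.8%, expected 27.9%) and 21 in MIZ-1DPOZ (26.9%, expected 48.2%).

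Peaks in Mrp promoters lay mostly near the starts, as they did in other genes. The summit of the strongest peak lay within 500 bp of a start for 12 of 14 genes in the MIZ-1WT list and 25 of 29 in the MIZ-1DPOZ list (85.7% and 86.2%, against 81.8% and 79.2% of all bound protein-coding genes), with medians 26 bp before and 99 bp after the start. The medians over all bound protein-coding genes were 86 and 124 bp after it. Of the 15 MIZ-1WT promoter peaks, 7 summits lay upstream, 5 in an intron, 2 in an untranslated exon stretch and 1 in a coding exon. Of the 34 MIZ-1DPOZ peaks, 11 lay upstream, 10 in a coding exon, 8 in an intron and 5 in an untranslated exon stretch. The nearest start was that of another gene for 5 of the 15 and 13 of the 34, among them Ndufs6 beside Mrpl36 and Ndufb5 beside Mrpl47, both subunit genes of respiratory complex I.

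**Figure D4:**
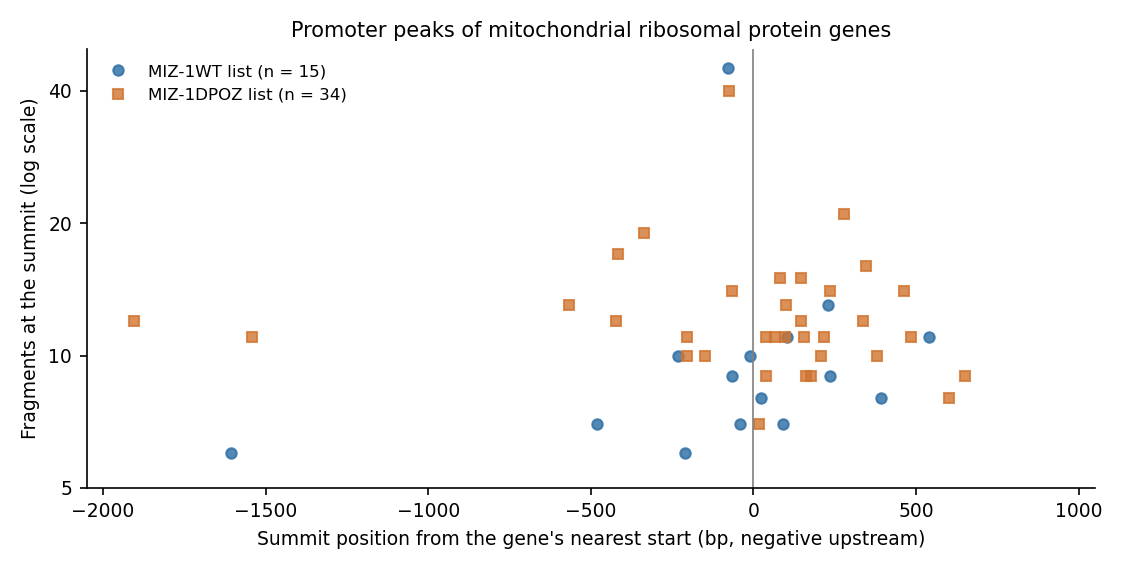
Fragments at the summit (y axis, log scale) against the distance of the summit from the nearest start of the Mrp gene (x axis, bp, negative upstream) for all 15 MIZ-1WT and 34 MIZ-1DPOZ promoter peaks. Both Mrps23 summits (45 and 40 fragments) lie 78 and 75 bp upstream, and most others within 500 bp of a start at 6 to 21 fragments.

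Gene bodies outside the promoter windows held few peaks. In the MIZ-1WT list 4 Mrp genes had one (5.13%, background 24.2%) and in the MIZ-1DPOZ list 12 (15.4%, background 42.8%). Weighted by gene length the expected shares were 12.3% and 27.6%. Per megabase of gene body the Mrp genes held 9.13 MIZ-1WT peaks against 10.0 over all protein-coding genes, and 23.3 MIZ-1DPOZ peaks against 25.8. Mrps28 alone held 6 of the 9 MIZ-1WT peaks and 8 of the 23 MIZ-1DPOZ peaks, all in introns. Its tallest, with 51 fragments (−log10 q 29.2, chr3:8831849-8832812), lay in a window that was 100% repeat-masked and overlapped 2 MIZ-1WT peaks of 14 and 13 fragments.

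The other body peaks were single or weaker. Mrpl47 had one of 16 fragments (−log10 q 9.96) in an intron, found in the MIZ-1DPOZ list. Mrps27, a protein with RNA-binding repeats, had 4, all in introns and all in the MIZ-1DPOZ list, the strongest with 15 fragments (−log10 q 8.91). Mrps36 had one of 13 fragments (−log10 q 6.90) in a fully masked window and Mrps11 one of 12 (−log10 q 5.96) in an untranslated exon stretch.

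Mrp promoters held the ETS, YY1 and NRF1 core sequences more often than promoters in general. Promoters were searched on both strands from 300 bp before to 100 bp after the most upstream start. The ETS core CCGGAAG, which factors such as GABPA bind, was in 34 of 78 Mrp promoters (43.6%), against 12.4% of all protein-coding promoters and 15.2% expected from GC content. The YY1 core AAGATGGC was in 12 (15.4%, against 3.9% of all and 4.43% expected), and the NRF1 core GCATGCGC in 7 (8.97%, against 4.0% and 4.48%). The GC box GGGCGGG was in 31 (39.7%, against 34.3%), CCAAT, the NF-Y box, in 31 (39.7%, against 45.0%) and the E-box CACGTG, which MYC and its relatives bind, in 5 (6.41%, against 9.21%). The letters ATCGGTAA, the start of a consensus described for MIZ-1, were in none of the 78 and in 26 of 21938 promoters. No other MIZ-1 sequence was among the 7 motifs of this search. The absence of these letters therefore does not extend to other sequences that MIZ-1 may bind.

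The ETS core occurred in bound and in unbound Mrp promoters. It was in 7 of the 14 bound in the MIZ-1WT list and in 27 of the 64 that were not (42.2%), and in 15 of the 29 bound in the MIZ-1DPOZ list (51.7%) and 19 of the 49 that were not (38.8%). In windows of 100 bp to each side of the summits it was in 5 of 15 MIZ-1WT peaks of Mrp promoters (33.3%, against 5.55% of all promoter summits) and in 8 of 34 MIZ-1DPOZ peaks (23.5%, against 4.87%). The summits of all promoters are not matched to Mrp promoters, which held the core more often whether bound or not. Mrp windows of this size away from summits were not searched, so the excess cannot be tied to the peaks. No E-box was found in any of the 49 summit windows, where 4.63% and 3.79% of all promoter summits held one. At shares this low few of the 49 windows would hold one, so the absence says little about the Mrp genes. A match is a description of the letters and not a measured site.

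**Figure D5:**
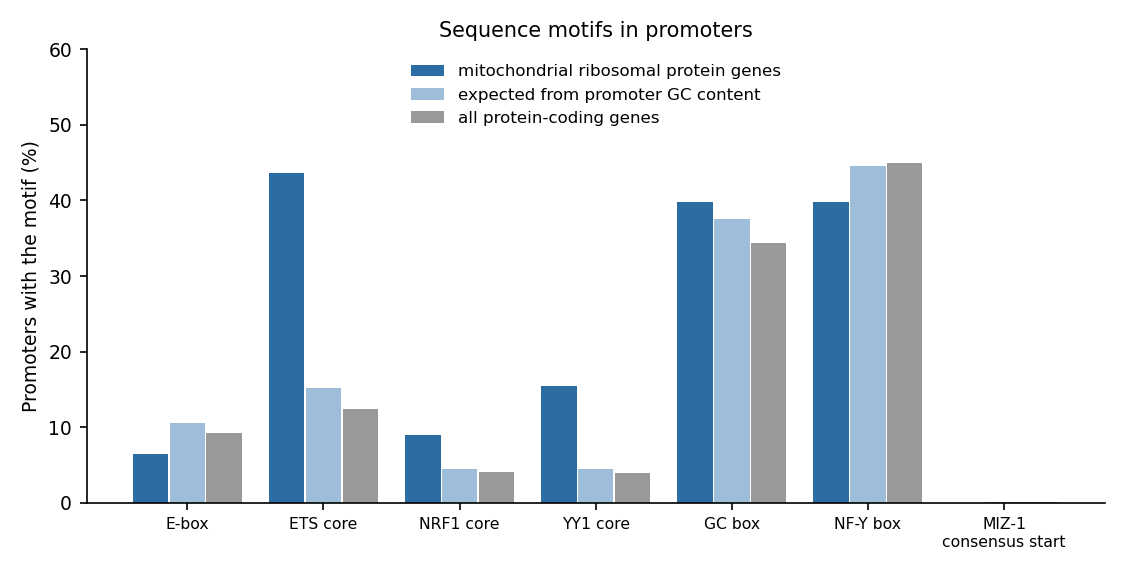
Share of promoters (%, y axis) holding each of 7 motifs (x axis) for the Mrp genes, for the share expected from promoter GC content and for all protein-coding genes. The ETS core stands at 43.6% in the Mrp promoters against 15.2% and 12.4%, and the other motifs differ less in absolute terms.

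The letters ATCGAT of the Mrps23 promoter were searched after that sequence had been read. They were in 2 of 78 Mrp promoters (2.56%) and in 265 of 21938 promoters (1.21%). Around the summits of MIZ-1WT promoter peaks with at least 20 fragments and at most 50% repeat-masked sequence they were in 18 of 110 (16.4%), against 14 of 7186 lower peaks (0.19%). In the MIZ-1DPOZ list the same classes gave 6 of 529 (1.13%) and 52 of 12034 (0.43%). Mrps23 was the only Mrp promoter peak with these letters in its summit window, in either list. Its peaks, from which the letters were taken, are themselves counted among the 18 and the 6. The letters begin at base 80 of the stretch given above, with the summits at bases 173 and 176, so they lie near the edge of the window.

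The other genes of mitochondrial translation had shares nearer to the expected level. Of 60 such genes outside the Mrpl and Mrps names, 15 were bound in the MIZ-1WT list (25%, 15.8 to 37.2, expected 30.0%) and 27 in the MIZ-1DPOZ list (45.0%, 33.1 to 57.5, expected 52.3%). By role, these were 2 and 2 of 5 ribosomal proteins named otherwise, 2 and 8 of 14 translation factors, 6 and 8 of 17 aminoacyl-tRNA synthetases, and 5 and 9 of 24 assembly factors. The intervals overlapped those of the Mrp genes in both lists.

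The low counts were shared with the other large protein complexes that were counted. Of 80 cytosolic ribosomal protein genes, 18 were bound in the MIZ-1WT list (22.5%, 14.7 to 32.8, expected 34.1%) and 27 in the MIZ-1DPOZ list (33.8%, 24.3 to 44.6, expected 58.4%), with 9 in both. Of 86 nuclear genes of oxidative phosphorylation subunits, 18 (20.9%, 13.7 to 30.7, expected 29.0%) and 30 (34.9%, 25.7 to 45.4, expected 52.3%) were bound, with 10 in both. For the oxidative phosphorylation genes the expected MIZ-1WT share lay inside the interval. The other expected shares of these sets lay above their intervals. The intervals of these sets overlapped those of the Mrp genes, and the difference between the sets was not tested.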

How the data were processed

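Chromatin of B220+ splenocytes was immunoprecipitated with a Miz-1 antibody, and the libraries were sequenced as read pairs of 50 cycles. The authors deposited 1 peak list per genotype from MACS2, and the reads and input libraries were not analysed here. In these narrowPeak files the deposited columns hold a score, the fold enrichment, −log10 p-values and −log10 q-values, and positions (other) in mm10. The submitters' processing notes name Bowtie2 2.2.6 and MACS2 2.1.0, while the methods of the study name bwa and another MACS2 version. The q cutoff and the treatment of duplicates were not given in the sources used here. The lists hold 34209 (MIZ-1WT) and 78357 (MIZ-1DPOZ) peaks, with lowest −log10 q values of 1.03 and 1.01. Their sequencing depth is unknown.

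The pileup and background at each summit were recovered from fold and −log10 p, to within 0.001, for 100% of peaks. The most frequent background was 0.86 and 1.35 fragments, which with the smallest peak widths (148 and 173 bp, taken as fragment lengths) gives a depth ratio of 1.34. Starts came from GENCODE basic release 21, without mitochondrial chromosome genes, and sequence and repeat masking (lower-case bases) from RefSeq GRCm38.p6. RefSeq promoters matched 69 of the 78 genes. GC content was taken 500 bp to each side of the starts. Intervals were Wilson 95% or exact binomial 95%, and Python 3.11.15, scipy 1.17.1, pandas 2.3.3, pysam 0.24.0 and samtools 1.23.1 were used. The estimators were tested on simulated data.

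Named genes were all in the MIZ-1WT list only, up to 10 in both lists, the 5 with the largest −log10 q in the MIZ-1DPOZ list only (a tie gave 6), the 3 highest and 3 lowest pileup ratios, and the 5 strongest gene-body peaks. Ict1 of the lists is the member Mrpl58 under an older symbol. The members and lists were chosen with earlier results of these data known. The comparison of carry-over between lists, the gene-length weighting and the letters ATCGAT were chosen after seeing the data.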

Additional observations from a re-analysis of the deposited data

How the results depend on the processing

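The Mrp genes stayed below the share expected from GC content in both lists under each of the 8 alternatives for calling, window, assignment, starts and repeats. Counts fell with stricter calling. At a −log10 q of at least 5 there were 5 genes bound in MIZ-1WT, 19 in MIZ-1DPOZ, 3 in both and 2 in MIZ-1WT only, expected shares of 9.89% and 35.8%, and 1 gene with a MIZ-1WT body peak. At a fold of at least 5 there were 7, 18, 4 and 3, with 14 in MIZ-1DPOZ only and 1 with a MIZ-1WT body peak. With equal numbers of peaks there were 12 in MIZ-1DPOZ, 4 in both, 8 in MIZ-1DPOZ only and 4 with a MIZ-1DPOZ body peak. These alternatives keep fewer peaks by construction. The median log2 ratio ran from −0.42 to −0.08. For single genes, scaling by the most frequent background was added after seeing the data. It changed whether the interval of Mrps23 and the bounds of Mrpl44 and Mrps18c lay clear of equality, as given in the report. The share of MIZ-1WT-bound genes also bound in MIZ-1DPOZ, added after seeing the data, was lowest at 28.6% with equal numbers of peaks and highest at 3 of 5 with the q cutoff, below that of all genes in each setting. The gap to all genes was narrowest at a fold of at least 5 (57.1% against 66.4%). No paired analysis was possible because a single immunoprecipitated library stood for each genotype. Pileups near the calling limit bound what either list can show for a single gene.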
